A study of Mus musculus with 4 samples.

Results

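The glycolytic enzymes described here are the array's probe sets named by a single gene symbol for 1 of 10 enzymes that turn glucose phosphate into pyruvate and lactate: Gpi1, Pfkl, Pfkm, Aldoa, Tpi1, Gapdh, Pgk1, Pgam1, Eno1 and Ldha. The rule found 8 probe sets for 7 of the 10 genes, out of 12422 probe sets against transcripts. Gapdh, Gpi1 and Eno1 are not described: the Gapdh probe sets were control sets (6) or were shared with other gene symbols (2), and Gpi1 and Eno1 had no probe set under those symbols in the annotation used. Messenger RNA was measured in epididymal white fat of male C57 BL6 mice of 3 to 4 months of age, on 1 microarray of pooled RNA for each of 4 groups. The groups were a control and mice treated for 1, 3 or 6 days with CL 316243, which activates the β3-adrenergic receptor on adipocytes, given at 3 nmol/hr. The labels do not say how many mice made up a pool or what the control mice received.

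With 1 array a group there is no replicate check of any difference, and no test was run. A value is a linear fluorescence intensity after a small scaling of each array. Intensities under 173 units, the 40th percentile, were treated as not above background and raised to that floor before a ratio was taken. A probe set was called higher or lower past a 2-fold ratio between arrays. The measurement error was taken from pairs of probe sets for the same gene, whose log2 changes should match. Whether the probe sets of a pair share probes was not checked, and shared probes would make the error too small. For pairs brighter than 16 times the floor (78 pairs), a range that holds 7 of the 8 probe sets, it was 0.18, 0.14 and 0.16 in the comparisons of days 1, 3 and 6 with control. It was 0.42, 0.30 and 0.28 over 149 pairs at 2 to 6 times the floor, the range of Pfkm by its mean. Over all 734 pairs, whatever their brightness, which was the error first planned, it was 0.33, 0.26 and 0.25. Errors are those of the brightness range unless all 734 pairs are named. These errors do not cover differences between animals or pools, so a change beyond 3 errors is larger than the disagreement between probe sets and has not been shown to exceed the spread between pools.

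The tissue label was set against marker genes. By the brightest probe set of each gene, all 8 measured fat cell markers exceeded the floor on all 4 arrays. Among them was Adipoq (adiponectin), with 52042 units in control and 25374, 42596 and 55274 on days 1, 3 and 6. The dimmer Lep probe set, at 10217, 8, 614 and 1412 units, was below the floor at day 1. The dimmer Slc2a4 probe set was below it on all 4 arrays. The summed intensity of the fat cell markers was 159263 in control and 66622, 109207 and 139738 on days 1, 3 and 6. For 10 macrophage and myeloid markers the sum was 32509 in control and 93425, 84443 and 41027 on the treated days, and for 6 neutrophil markers it was 2315, 70899, 4236 and 2550, of which 1782, 3868, 2202 and 1894 came from the 4 markers other than S100a8 and S100a9. Sums take the brightest probe set of a gene. The 2 other probe sets of Csf3r, 1 of these 4 markers, rose from below the floor in control to 5706 and 4003 units at day 1. In such bulk RNA, fewer cells of a type and less RNA per cell cannot be told apart.

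Glycolysis first spends ATP to phosphorylate and split glucose, and then recovers ATP and reduced NAD while the trioses are turned into pyruvate, which lactate dehydrogenase can reduce to lactate. In white fat cells the pathway supplies glycerol phosphate for triglyceride and carbon for fatty acid synthesis, and macrophages and neutrophils depend on it heavily when activated. The enzymes of several steps come as isozymes from different genes, and many of these genes are known targets of the hypoxia-inducible factor HIF-1.

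The 7 measured enzymes did not move together. Pgk1 was 2.78-fold higher than control at day 1, Pgam1 was 1.72-fold higher, and Pfkm was 2.94-fold lower, while Pfkl, Aldoa, Tpi1 and Ldha stayed within 1.25-fold. At day 3 all 7 genes were at or above their control level, by 1.05-fold for Pfkm to 1.80-fold for Pgk1. By day 6 the largest difference from control was 1.24-fold, for Pgam1. The 3 comparisons share the control array, so their values are given side by side and are not independent of each other.

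**Figure D1:**
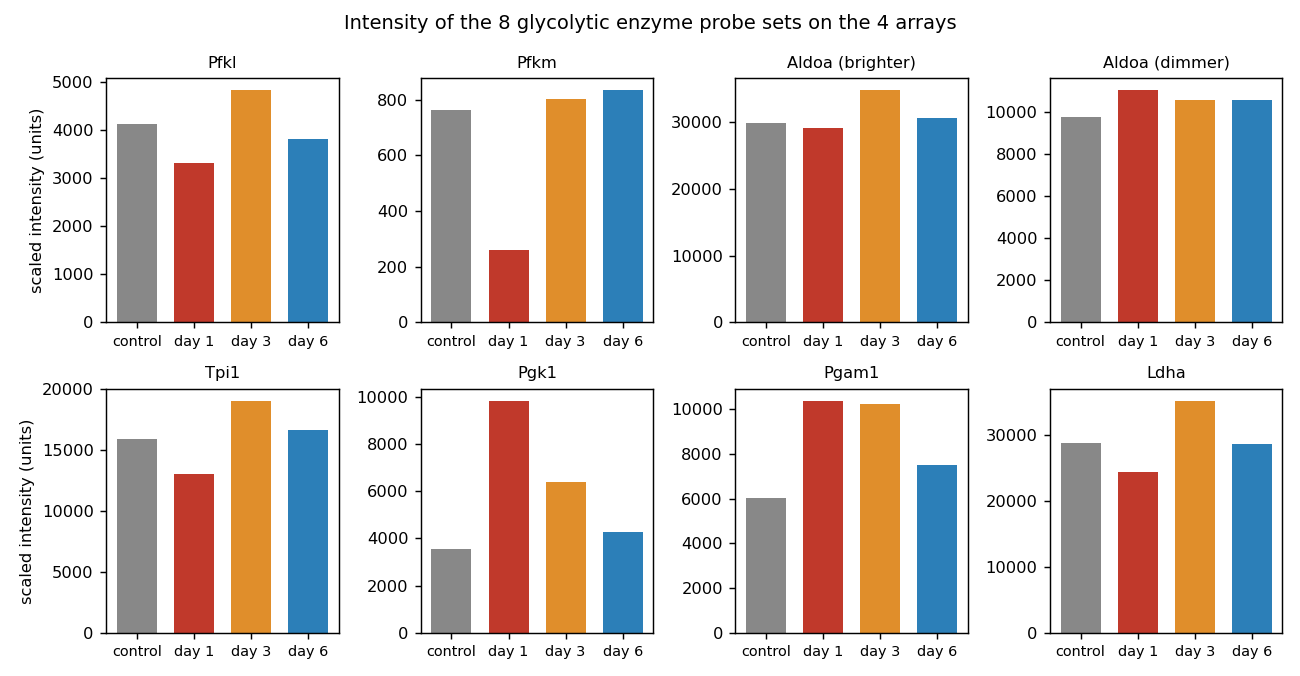
Scaled intensity, in linear units from 0, of the 8 probe sets on the control array and on the arrays of days 1, 3 and 6, with 1 bar per array and no error because each group has 1 array. Pgk1 was highest at day 1 (9831 units), Pfkm was lowest there (260 units), and Pfkl, Tpi1 and Ldha were each lowest at day 1 and highest at day 3. The vertical scales differ, as intensities of different probe sets cannot be compared.

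At day 1 the 2-fold call was passed upward by 1 of the 8 probe sets and downward by 1, against 5.06% of all 12422 probe sets higher and 5.31% lower. Restricted to the 1530 probe sets with a mean above 16 times the floor, 7.19% were higher and 11.2% lower. The median log2 change of the 7 genes, each by its brightest probe set, was -0.24, beside -0.02 over the 6269 genes above the floor. At day 3 no member passed 2-fold in either direction, where 2.52% of all probe sets were higher and 2.13% lower, and the median was 0.26 beside 0.00. At day 6 again 0 of 8 passed, with 1.26% of all probe sets higher and 1.18% lower, and the median was 0.07 beside 0.00. With 8 probe sets, counts of 0 or 1 lie near these backgrounds.

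**Figure D2:**
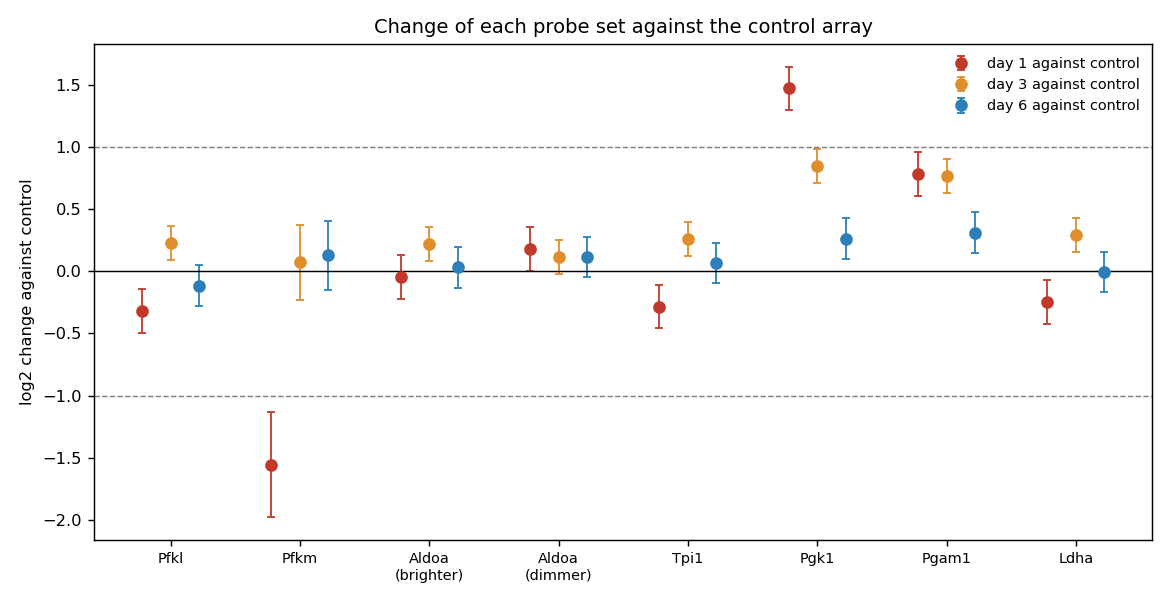
Log2 change of each probe set against the control array at day 1 (red), day 3 (orange) and day 6 (blue). Bars are 1 measurement error from pairs of probe sets of like brightness and hold no variation between animals; dashed lines mark 2-fold. Pgk1 at day 1 (1.47) and Pfkm at day 1 (-1.56) lie outside the dashed lines.

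Phosphofructokinase commits glucose carbon to glycolysis and is the pathway's main point of control. Its muscle-type subunit gene, Pfkm, had 763 units in control, 260 at day 1, 803 at day 3 and 835 at day 6. Day 1 alone was low, and the other 3 arrays were within 1.09-fold of control. The log2 change at day 1 was -1.56, which is 3.67 measurement errors of its brightness range, and 2.77% of the 8372 probe sets above the floor had a lower change. The value of 260 is 1.5 times the floor, under the 2 to 6 times of that range. Pairs were placed in the range by their mean and were above the floor on all 4 arrays. The error at 260 units was thus not measured and may be larger. With the floor at the 60th percentile, 537 units, the log2 change of Pfkm was -0.51 and it was no longer past 2-fold.

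The liver-type subunit gene, Pfkl, had 4136 units in control and 3322, 4837 and 3820 on days 1, 3 and 6. It was lowest at day 1 and highest at day 3, and its log2 changes against control, -0.32, 0.23 and -0.11, were each within 3 errors. The platelet-type gene Pfkp, which is no member, went from 1102 to 1308, 702 and 585. Its other probe set, at 835, 1087, 553 and 445, was likewise highest at day 1 and lowest at day 6. Pfkp thus had its highest value on the day when Pfkm and Pfkl had their lowest, although the low Pfkl value lay within 3 errors of control. The Pfkp log2 changes at day 1, 0.25 and 0.38, were each under the error of 0.42 at 2 to 6 times the floor. At day 3 they were -0.65 and -0.59, within 3 errors of that range (0.91). At day 6 both were -0.91, beyond 3 errors (0.83).

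Pfkm is abundant in skeletal muscle, so muscle markers were read on the same arrays. Of 10 of them, 4 (Ckm, Myh1, Tnnt3 and Tnni2) were below the floor on all 4 arrays. The summed intensity of the 10 was 4360 in control and 5612, 3845 and 3336 on the treated days, and without the actin gene Acta1, which had 1492, 2379, 212 and 168 units, the other 9 summed to 2868, 3233, 3633 and 3168. Of this, 1897, 2199, 2519 and 2039 came from 1 probe set of Pvalb. The other Pvalb probe set, at 71, 27, 37 and -27, never reached the floor. The muscle myosin gene Myh4, at 343 units in control, was below the floor at day 1, the day of the low Pfkm value, and stood at 383 and 373 on days 3 and 6. Its other probe set, at 42, 104, 18 and 41, never reached the floor. Of 6 muscle markers above the floor on at least 1 array, 4 had a log2 change above 0 at day 1 and 2, Myh4 among them, below 0. The glucose transporter Slc2a4, which insulin brings to the surface of fat and muscle cells, was read by its brighter probe set. It had 4054 units in control, 648 at day 1, 4015 at day 3 and 4553 at day 6. Fat cell markers as a list had a median log2 change of -1.47 at day 1, with 5 of 8 at least 2-fold lower, and of -0.26 and 0.09 at days 3 and 6. Their part in the low Pfkm value was not tested.

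Aldolase A (Aldoa) splits fructose bisphosphate into the triose phosphates. Its brighter probe set had 29987 units in control and 29126, 34877 and 30647 on days 1, 3 and 6. The dimmer had 9733, 11024, 10554 and 10560. Both carry the suffix that marks probe sets that can match several sequences of a family, so related sequences may add to either. Neither differed from control by more than 1.16-fold on any day. At day 1 they lay on opposite sides of control, with log2 changes of -0.04 and 0.18, both close to or under the error of 0.18.

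Triose phosphate isomerase (Tpi1), which interconverts the products of aldolase, had 15884 units in control, 13056 at day 1, 19060 at day 3 and 16645 at day 6. The day 1 array was lowest and the day 3 array highest, with log2 changes against control of -0.28 and 0.26, within 3 errors each.

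Phosphoglycerate kinase (Pgk1) makes the first ATP that glycolysis returns. It had 3542 units in control, 9831 at day 1, 6375 at day 3 and 4254 at day 6. All 3 treated arrays were above control, and the level was lower at each later day. The log2 changes were 1.47, 0.85 and 0.26, or 8.34, 6.21 and 1.63 errors, and 3.89%, 5.24% and 22.8% of the 8372 probe sets above the floor had a higher change on days 1, 3 and 6.

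Phosphoglycerate mutase (Pgam1) moves the phosphate of the Pgk1 product in the next step. Its intensity was 6030 in control, 10381 at day 1, 10246 at day 3 and 7487 at day 6. The arrays of days 1 and 3 stood together above control, by log2 changes of 0.78 and 0.76, or 4.44 and 5.60 errors, without reaching 2-fold. Over all 734 pairs, 3 errors were 0.98 and 0.79, and both changes lay within them. At day 6 the change was 0.31, which is 1.92 errors.

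Lactate dehydrogenase A (Ldha) reduces pyruvate to lactate and restores oxidised NAD. Its probe set had 28798 units in control and 24329, 35214 and 28711 on days 1, 3 and 6. As for Tpi1 and Pfkl, the lowest array was day 1 and the highest day 3, with log2 changes of -0.24 and 0.29 that were each within 3 errors. The day 6 array was level with control, at a log2 change of -0.0044.

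The proximal promoters of 5 enzymes, chosen by their day 1 values, are shown with the core of the hypoxia response element marked. Pgk1 and Pgam1 were higher at day 1, Pfkm was lower, and Ldha and Tpi1 were within 3 errors of control. By the error over all 734 pairs, Pgam1 was within 3 errors too. The sequences are the 250 bases before the annotated start (the most upstream of 2 starts for Ldha and of 4 for Pfkm), from RefSeq on GRCm38.p6, 5′ to 3′ on the gene's strand. Capitals mark ACGTG or GCGTG on either strand, so that CACGT and CACGC mark the reverse strand.
Pgk1, chrX:106186850-106187099, + strand: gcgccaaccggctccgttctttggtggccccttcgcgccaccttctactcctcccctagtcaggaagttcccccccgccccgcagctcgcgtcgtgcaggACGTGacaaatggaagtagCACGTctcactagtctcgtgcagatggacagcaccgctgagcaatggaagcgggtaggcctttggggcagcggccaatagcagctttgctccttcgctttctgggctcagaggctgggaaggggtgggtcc
Pgam1, chr19:41911621-41911870, + strand: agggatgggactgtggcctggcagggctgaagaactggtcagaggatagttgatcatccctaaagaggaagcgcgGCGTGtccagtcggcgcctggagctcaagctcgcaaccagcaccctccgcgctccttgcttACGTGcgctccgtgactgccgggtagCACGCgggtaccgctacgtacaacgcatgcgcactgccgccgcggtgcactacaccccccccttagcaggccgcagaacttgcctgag
Pfkm, chr15:98092339-98092588, + strand: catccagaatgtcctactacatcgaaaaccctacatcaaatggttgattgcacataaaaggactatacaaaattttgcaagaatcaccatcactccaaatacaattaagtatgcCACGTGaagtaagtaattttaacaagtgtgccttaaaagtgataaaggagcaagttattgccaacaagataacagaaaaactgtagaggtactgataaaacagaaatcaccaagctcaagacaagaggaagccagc
Ldha, chr7:46845554-46845803, + strand: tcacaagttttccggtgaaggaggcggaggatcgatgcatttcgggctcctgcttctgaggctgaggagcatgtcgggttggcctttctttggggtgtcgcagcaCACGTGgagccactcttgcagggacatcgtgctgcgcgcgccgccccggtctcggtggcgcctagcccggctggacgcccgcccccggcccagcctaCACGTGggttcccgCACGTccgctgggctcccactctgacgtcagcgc
Tpi1, chr6:124814159-124814408, - strand: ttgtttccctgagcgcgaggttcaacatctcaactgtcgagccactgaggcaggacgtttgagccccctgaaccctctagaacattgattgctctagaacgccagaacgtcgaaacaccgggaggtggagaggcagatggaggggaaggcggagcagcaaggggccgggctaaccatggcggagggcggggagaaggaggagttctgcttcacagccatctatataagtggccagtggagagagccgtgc

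In Pgk1 the core ACGTG occurs on both strands, beginning 150 and 131 bases before the start. Pgam1 holds ACGTG 114 bases before the start and GCGTG at 175 and, on the reverse strand, 88 bases. The upstream Ldha window has 5 matches to ACGTG, of which 4 come from 2 copies of the palindrome CACGTG, an E-box that reads as ACGTG on each strand, beginning 145 and 48 bases before the start. The upstream Pfkm window holds 1 CACGTG, beginning 136 bases before the start. No match stands in the stretch shown for Tpi1. Of the genes shown with a core, Pgk1 and Pgam1 were higher at day 1, Pfkm lower and Ldha within 3 errors of control. These are the values by which they were chosen. The most downstream of the 4 Pfkm windows holds no core, and which start was used in this tissue was not measured. Any part of the core in these values was not tested. Over 300 bases around each start, 250 before and 50 after, 10 of 13 windows of the 7 genes (several have more than 1 start, and some windows overlap) hold ACGTG or GCGTG on either strand, as do 43.8% of all 32851 promoter windows of this length. The GC box GGGCGG stands in 7 of the 13 windows and in 35.7% of all, CACGTG in 2 and in 7.15%, and TATAAA in 0 and in 13.6%. Such a match is a stretch of letters and was not tested as a binding site.

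Ratios between treated days do not use the control array. From day 1 to day 3, 1 member probe set was at least 2-fold higher and 0 were lower, beside 3.64% and 4.1% of all probe sets. It was Pfkm, at 3.09-fold. Pfkl, Tpi1 and Ldha were 1.46-fold, 1.46-fold and 1.45-fold higher at day 3 than at day 1, which is 2.79, 2.81 and 2.75 errors. In the same comparison Pgk1 was 1.54-fold lower, or 3.22 errors, and Pgam1 was 1.01-fold lower. Over all 734 pairs, 3 errors were 1.85-fold, and the Pgk1 change lay within them. The median log2 change of the 7 genes was 0.53, beside 0.01 over all genes above the floor.

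Between day 3 and day 6 the 2-fold counts were 0 higher and 0 lower, beside 1.07% and 1.82% of all probe sets, and 6 of the 7 genes had lower values at day 6. Pgk1 and Pgam1 had log2 changes of -0.58 and -0.45, at 4.56 and 3.54 errors, and the median was -0.29 beside 0.00. Over all 734 pairs, 3 errors were 0.72, and both changes lay within them. From day 1 to day 6, Pfkm was 3.21-fold higher and Pgk1 2.31-fold lower, which makes 1 member in each direction beside 5.59% of all probe sets higher and 5.98% lower.

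**Figure D3:**
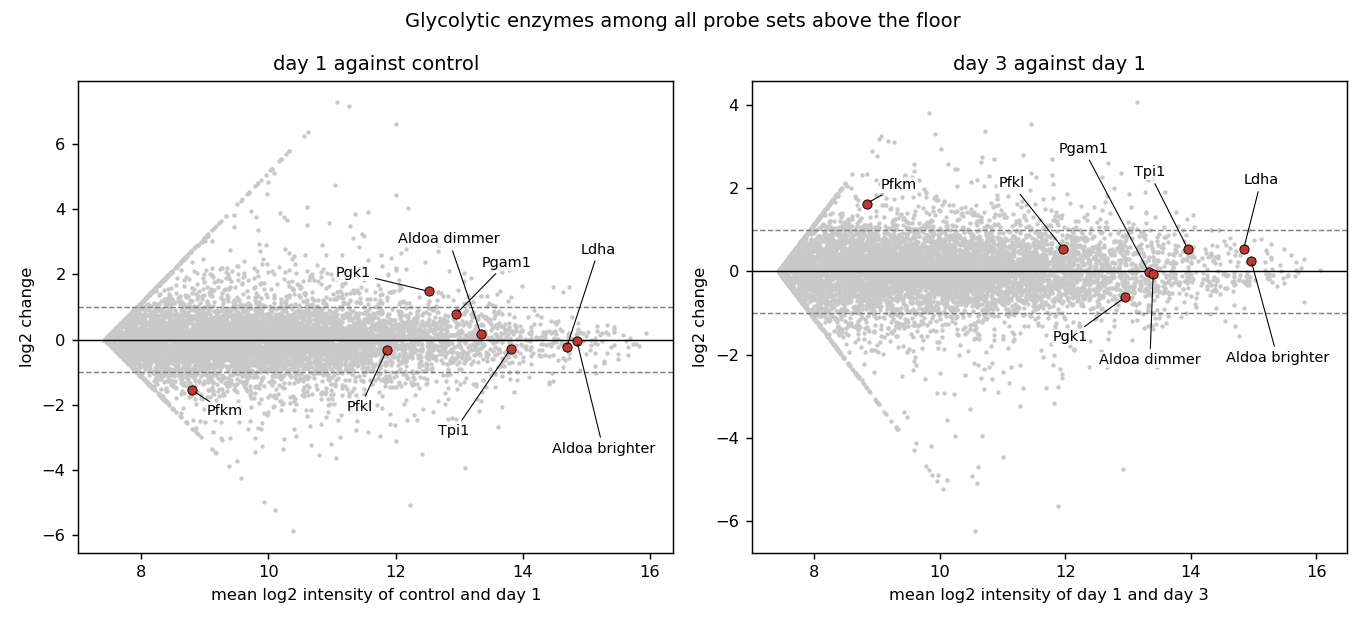
Log2 change against mean log2 intensity for the 8372 probe sets above the floor on at least 1 array (grey) and the 8 glycolytic enzyme probe sets (red), with day 1 set against control on the left and day 3 against day 1 on the right; dashed lines mark 2-fold. Pfkm, the dimmest member, and Pgk1 lie outside the lines at day 1, and Pfkm alone does so between days 1 and 3.

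Genes whose course was nearest to that of the 2 members past 2-fold were found among 4939 genes, by Euclidean distance over the 3 log2 changes against control. For Pgk1 they were Scarb2, a lysosomal membrane protein (distance 0.08; 2359, 6412, 4103 and 2723 units in control and at days 1, 3 and 6), the ribonuclease inhibitor Rnh1 (0.16) and the cathepsin inhibitor cystatin B, Cstb (0.18). For Pfkm they were the ectonucleotidase Entpd2 (distance 0.02; 2559, 876, 2666 and 2779 units), Dram2 (0.10) and the adenylate kinase Ak3 (0.14). With 3 changes that share a control array, such nearness is a description of these 4 arrays.

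As a list, macrophage and myeloid markers were high on the same days as Pgk1 and Pgam1. The list had median log2 changes of 2.11, 1.61 and 0.44 at days 1, 3 and 6, with 7, 6 and 1 of 10 genes at least 2-fold higher. Of all genes above the floor, 7.51%, 3.8% and 1.72% were. Courses within the list differed. The lysosomal protein Cd68 had 1913, 8718, 10439 and 2867 units, highest at day 3, and Cd14 had 2414, 17886, 3880 and 2691, highest at day 1. Lyz2 (11656 and 11627 units) and Csf1r (3922 and 4161) were near control at day 1 and highest at day 3. Fcer1g was above the floor at day 1 alone. Among 5 neutrophil markers above the floor the medians were 3.11, 0.40 and 0.00, and the genes differed: S100a8 went from 414 to 40305, 1494 and 643, Camp from 460 to 242, 546 and 594, and Ngp never reached the floor. Cxcr2 was above the floor at day 1 alone, with 1494 units. Csf3r had 1198, 2041, 1581 and 1172 units by its brightest probe set, with the other 2 as given above. Brown fat markers had medians of 0.29, 2.80 and 2.62 over 4 genes above the floor, and these 4 did not share a course: Cox8b had 1002, 815, 9551 and 15473 units. Ucp1, a marker on this list that does not by itself show brown fat cells in this white fat, was below the floor in control. It was highest at day 1, with 3056, 1501 and 1190 units on the treated days, and its dimmer probe set, at 41, 553, 348 and 142, was highest at day 1 too. For the testis and epididymis list, at most 406 units on any array, the medians were 0.09, -0.05 and 0.72 over 4 genes. Whether cells that carry any of these markers contributed to the Pgk1 and Pgam1 values was not tested.

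Other genes of glucose handling and hypoxia-induced genes were read from 6 lists with 57 genes above the floor, 13 of them in the hypoxia list. At day 1, 10 of the 57 were at least 2-fold higher and 11 lower, beside 7.51% and 8.36% of the 6269 genes above the floor. At day 3 the counts were 3 and 3, beside 3.8% and 3.25%, and at day 6 they were 2 and 0, beside 1.72% and 1.63%. Of these counts the hypoxia list, which is no part of the glucose pathway, gave 4 higher and 2 lower at day 1. It gave 1 higher and 0 lower at day 3, and the same at day 6.

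Of 11 other glycolytic isozymes and enzymes above the floor, 1 passed 2-fold at day 1 and none on the later days. It was pyruvate kinase (Pkm), which makes the last ATP of the pathway. Its 2 probe sets went from 9257 to 20894, 14696 and 9743 and from 2944 to 6732, 4311 and 3480, which is 2.26-fold by the brighter at day 1. Like Pgk1, both were highest at day 1, lower at day 3 and lowest among the treated days at day 6. Both Pkm probe sets carry suffixes of sets that can match several sequences, so related sequences may add to either. The list's medians were 0.25, -0.09 and 0.07 on the log2 scale. Hexokinase 2 (Hk2), which phosphorylates incoming glucose in insulin-responsive tissue, had 2566 units in control and 2809, 1819 and 1637 on the treated days, and a second probe set below the floor throughout.

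Among 5 regulators and gluconeogenic enzymes, the mitochondrial carboxykinase Pck2 passed 2-fold downward at day 1, from 470 to below the floor, at least 2.72-fold; the dimmer Pck2 probe set never reached the floor. Medians of this list were 0.00, 0.07 and 0.14.

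Of 14 genes of the side routes above the floor, 4 were at least 2-fold lower and 1 higher at day 1, with a median of -0.56. Brain-type glycogen phosphorylase (Pygb), which releases glucose from glycogen, fell 6.00-fold, transketolase (Tkt) of the pentose phosphate path 3.05-fold, the glycogen branching enzyme Gbe1 2.89-fold and the mitochondrial glycerol phosphate dehydrogenase Gpd2 2.23-fold. The phosphopentomutase Pgm2 rose 2.92-fold, from 200 to 583. At day 3 the median was -0.14 and Pygb was still past 2-fold, at 2.23-fold lower; at day 6 the count was 0 by the brightest probe sets and the median was -0.15. The dimmer probe set of the glycerol phosphate dehydrogenase Gpd1 (920, 334, 1772 and 1936 units) was 2.76-fold below control at day 1 and 2.10-fold above it at day 6, while the brighter one (15678, 11680, 24559 and 24448) stayed within 2-fold.

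In transport, all 5 genes above the floor passed 2-fold at day 1, 3 upward and 2 downward. The widely expressed glucose transporter Slc2a1 rose at least 4.15-fold, from below the floor to 718 units, and Slc2a3 rose from 193 to 498, while the dimmer Slc2a3 probe set had 192 and 246 units. The lactate carrier Slc16a1 rose from 374 to 1068 and stood at 175 and 260 at days 3 and 6. The related carrier Slc16a7 fell from 1002 to below the floor, at least 5.79-fold, and Slc2a4 fell as given above. At day 3 Slc16a1 and Slc16a7 were 2.14-fold and 2.18-fold lower than control. The list's medians were 1.37, -0.16 and 0.00.

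Of 9 pyruvate entry genes, 1 rose and 2 fell at day 1, with a median of -0.67. Pdk4, which inhibits pyruvate dehydrogenase, went from 1006 to 3250, 3021 and 3491 and was past 2-fold on each day. Malic enzyme (Me1) fell 2.56-fold and pyruvate carboxylase (Pcx) 2.14-fold at day 1, when the other Pcx probe set went from 1534 to 912. At day 3 the median was 0.18 and Dlat, a pyruvate dehydrogenase subunit, was 2.23-fold higher by its brighter probe set and within 2-fold by the other; at day 6 the median was 0.17.

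Hypoxia-induced genes outside glycolysis gave no single direction. Of 13 above the floor, 4 rose and 2 fell at day 1, with a median of -0.16, and at days 3 and 6 the medians were -0.14 and -0.04. Hif1a, which encodes the oxygen-regulated subunit of HIF-1, went from 6923 to 17493, 6721 and 5919, and its other probe set from 6587 to 16518, 6778 and 5459. Both Hif1a probe sets carry the same suffix as those of Aldoa, so related sequences may add to either. The stress-induced gene Ier3 rose from 975 to 8777 units, the heme-degrading enzyme Hmox1 by 6.62-fold and the mTOR inhibitor gene Ddit4 by 2.66-fold. The mitophagy receptor Bnip3 fell 3.20-fold and the oxygen sensor Egln1 2.41-fold, and the growth factor Vegfa went from 1058 to 699. By the brightest probe set of each gene, Hmox1 was past 2-fold at days 3 and 6, at 3.56-fold and 2.01-fold, and the other 12 were not. The dimmer probe sets of P4ha2 (457, 210, 202 and 360 units) and Ndrg1 (2970, 2090, 1381 and 2056) were 2.26-fold and 2.15-fold below control at day 3, and that of P4ha2 was 2.18-fold below at day 1.

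**Figure D4:**
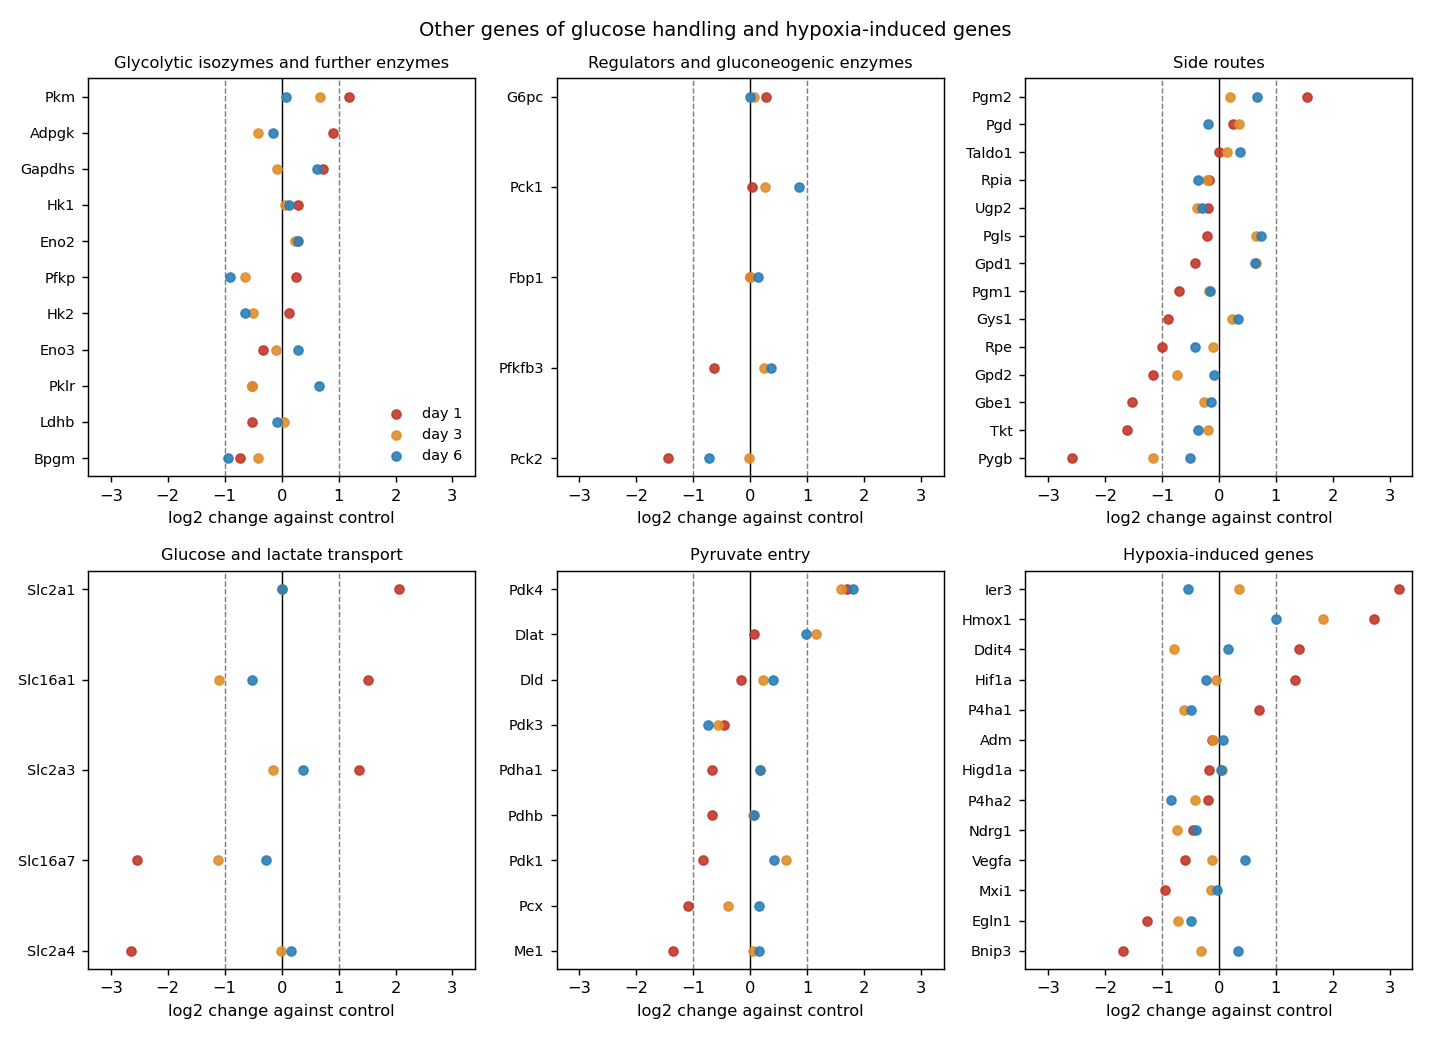
Log2 change against control at day 1 (red), day 3 (orange) and day 6 (blue) of the 57 genes above the floor in 6 lists of glucose handling and hypoxia-induced genes, each by its brightest probe set; dashed lines mark 2-fold. At day 1 the genes of side routes lie mostly to the left (12 of 14 below 0) and the transport genes split to both sides, 3 above and 2 below the dashed lines.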

How the data were processed

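Total RNA pooled from epididymal white fat was measured on 4 arrays, 1 per group. The authors deposited linear probe set intensity values as whole numbers, of which 12.2% to 12.4% per array were at or below 0; the software, background step and normalization behind them are named neither by the labels nor by the file. Arrays were brought to the same trimmed mean, taken from percentile 2 to percentile 98 (factors 0.999 to 1.001). Before log2 transformation, lower values were set to a floor, the 40th percentile or 173 units (Python 3.11.15, pandas 2.3.3). The calculation was tested on simulated data.

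Symbols came from the platform's annotation. Of 12422 probe sets, 10833 had 1 symbol, 396 had several, which were not named, and 1193 were unnamed here; 66 control sets were left out. All 8 member probe sets matched the GRCm38.p6 RefSeq table. No test was possible with 1 array per group, and the number of arrays limits the precision.

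Members and lists were chosen with earlier results of these data known, and the brightness ranges of the error after the values were seen. Named were all members, list genes past 2-fold against control on any day with Hk2, Pkm and Slc2a4, and the 3 genes nearest to each member past 2-fold, above the floor on all arrays and brighter than 2 times the floor on 1. Pfkp, Vegfa, Gpd1, P4ha2, Ndrg1 and the cell type markers were named after their values were seen. Alternatives changed the floor, the scaling, the fold and the probe sets that stand for a gene. Protein sequences were not analysed here.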

Additional observations from a re-analysis of the deposited data

Results flagged for a closer look

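For 3 enzymes the direction against control was opposite on 2 treated days, with both changes larger than 1 measurement error. Pfkl had log2 changes of -0.32 at day 1 and 0.23 at day 3, Tpi1 of -0.28 and 0.26, and Ldha of -0.24 and 0.29. The error over all 734 pairs was 0.33 at day 1, and the day 1 change of each was under it. Each day had 1 array, and the difference was not tested. Both changes use the same control array, and day 3 against day 1, which does not, gave 0.54, 0.55 and 0.53 for these genes.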

How the results depend on the processing

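Of 120 log2 changes of member probe sets recomputed with other floors and scalings, 119 moved by less than 1 measurement error and 0 reversed; the exception was Pfkm at day 1, -0.51 with the floor at the 60th percentile, which raises the dim array to it. The medians of the 7 genes also moved by less than 1 error under these settings and with the mean of all probe sets of a gene. Member counts at day 1 became 0 lower with the floor at the 60th percentile, 2 higher at a 1.5-fold call, and 0 higher and 0 lower at a 3-fold call, and at day 3 they became 2 higher at 1.5-fold. In comparisons of treated days, for which alternatives were chosen after seeing the data, the higher counts of day 3 and of day 6 against day 1 were 0 under the 60th percentile floor, the lower count of day 3 against day 1 was 1 at 1.5-fold, and that of day 6 against day 1 was 0 at 3-fold. For the 6 other lists, the day 1 counts were 6 higher with the floor at the 60th percentile, 4 higher and 5 lower at 3-fold, and 21 lower at 1.5-fold. Their day 3 counts were 7 higher and 9 lower at 1.5-fold, 0 lower at 3-fold and 1 lower with the floor at the 60th percentile. At day 6 they were 4 higher with the floor at the 25th percentile, 9 higher and 6 lower at 1.5-fold, and 1 higher at 3-fold. Counts not listed were the same or stayed within 1.5 times the main count in either direction. An example is 13 higher at day 1 at a 1.5-fold call, beside 10. A count changes with the fold or the floor because these set what is called. No paired analysis was possible because each group had 1 array, and for the same reason no array could be left out. Dim probe sets, such as Pfkm near the floor, limit what can be measured.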
